A study of Mus musculus with 6 samples.

Results

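The genes described here are 3 transglutaminases (Tgm1, Tgm3 and Tgm5), 6 genes for proteases of cornification and their control (Casp14, Asprv1, St14, Klk5, Klk7 and the inhibitor gene Spink5) and Cdsn, a substrate of the kallikreins. They were taken by symbol from a table of 24354 genes, and all 10 were found in it. The table holds expression values from basal epidermal cells of E18.5 mouse embryos (strain label C57BL6), sorted as cells high in α6 integrin, part of the receptor that anchors basal cells to laminin. Of the 6 libraries, 3 came from wild-type (WT) epidermis and 3 from epidermis that carried on both alleles the H1047R variant of Pik3ca, which encodes the catalytic subunit p110α of phosphoinositide 3-kinase (PI3K) and which this change activates. The latter are called mutant below. Nothing in the labels used here names a Cre driver, the age at which the variant became active or separate animals behind the replicates, so each p-value speaks only of the scatter among these libraries, part of which can be technical.

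Cornification is the last step of keratinocyte differentiation, in which living cells of the granular layer turn into the flat dead cells of the skin surface. Transglutaminases link glutamine to lysine side chains and so weld envelope proteins into an insoluble shell under the plasma membrane. Caspase 14 (Casp14) and the aspartic protease SASPase (Asprv1) cut filaggrin and its precursor, and matriptase (St14) is a membrane-anchored serine protease that acts early in the epidermal protease cascade. The kallikreins Klk5 and Klk7 cut corneodesmosin (Cdsn), the protein that holds corneocytes together, and LEKTI, the product of Spink5, restrains them until cells are shed. Most of these genes are known for their expression above the basal layer, so their levels in a basal cell sort are read here beside those of markers of each layer.

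Within this set the genes did not move as a block. Tgm3 was 3.77-fold and Casp14 1.51-fold higher in mutant libraries, while Cdsn was 2.87-fold, Klk5 1.97-fold, Klk7 1.76-fold and Tgm1 1.29-fold lower. Tgm5, Asprv1, St14 and Spink5 did not pass the test. Thus 6 of 10 genes were called at a limma adjusted p under 0.05, 2 higher and 4 lower. Over all 11385 genes tested, 46% were called (23.2% higher and 22.8% lower), so the share called among these 10 was not far from that background. The same shares are the background for the list counts below that name no other scaling. In 6 of 10 genes the groups did not overlap (Tgm3 and Casp14 higher, Tgm1, St14, Klk5 and Cdsn lower), against 56% of all genes tested (29.1% with mutant higher and 26.9% with mutant lower). In bulk samples, fewer cells of a type and less RNA per cell cannot be told apart. The median log2 fold change was -0.12 for the 10 genes and 0.01 for all genes tested. All 10 genes had a mean of at least 1 FPKM (a fragment count corrected for transcript length and library size), the minimum for testing. Fold changes in log2 units are mutant minus WT on log2(FPKM + 1), which understates the change of low genes, and folds are ratios of mean FPKM.

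The values summed to between 538627 and 767148 FPKM per library, lower in each mutant than in each WT library, and the number of reads behind them is unknown. Relative depth, read from the most frequent ratio of values under 1 FPKM to WT replicate 1, lay between 0.981 and 1.24. With every library brought to one total FPKM (total scaling below), the median gene moved from a log2 fold change of 0.01 to one of 0.30. Unless total scaling is named, a direction refers to the deposited values. Of 8 basal cell markers, Krt5 (12028 ± 155 FPKM in WT and 11977 ± 919 in mutant, SD, n = 3), Krt14 (10194 ± 440 and 8453 ± 819) and Trp63 (198 ± 13.3 and 206 ± 12.1) were not called. Itga6, the gene of the integrin used for the sort, was called lower (163 ± 7.55 and 123 ± 2.13 FPKM, limma adjusted p = 0.00146), as were Itgb4 (157 ± 13.3 and 92.7 ± 4.64), Itgb1 (178 ± 5.32 and 79.2 ± 2.12) and Col17a1 (517 ± 54.4 and 402 ± 14.1). Krt15 was called higher (2546 ± 154 and 3586 ± 223). None of the 5 endothelial markers reached the minimum for testing (summed level 1.2 to 2.6 FPKM in WT and 0.753 to 1.64 FPKM in mutant libraries). Immune markers summed to 5.78 to 6.61 FPKM in WT and 3.93 to 4.65 FPKM in mutant libraries. Of these, Cd68 (3.12 ± 0.296 and 2.01 ± 0.285 FPKM) and Fcer1g (2.02 ± 0.424 and 1.32 ± 0.132 FPKM) were called lower, and the Langerhans cell marker Cd207 was listed at 0 in every library. Dermal fibroblast markers summed to 369 to 501 FPKM in WT and 303 to 337 FPKM in mutant libraries, melanocyte markers to 16.1 to 22 and 11.4 to 13.9 FPKM, erythroid markers to 222 to 288 and 82.8 to 148 FPKM, and skeletal muscle markers to 13 to 19.1 and 7.66 to 8.1 FPKM. These 4 sums and the immune sum were lower in every mutant library than in every WT library. Dcn (272 ± 32.7 and 215 ± 18 FPKM), the largest part of the fibroblast sum, was the 1 called of 5 fibroblast markers tested. Under total scaling, no fibroblast, melanocyte or immune marker was called, while 3 of 5 erythroid and 2 of 3 skeletal muscle markers were called lower. The part of these markers in the results below was not tested.

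Promoters are shown for the 5 genes that changed most, so that the members that rose and those that fell can be set side by side. Each line gives the 250 bases before the RefSeq start (GRCm38.p6), 5′ to 3′ on the gene's strand. Capitals mark matches on either strand to CACCC (the Kruppel-like factor box), GGAATG (TEAD factors), TATAAA (the TATA box) and TTNNGCAA (C/EBP factors). The start used for Klk7 lies 150 bases from the start of its locus in the deposited table, and the other 4 starts coincide. The GENCODE M21 annotation starts Klk5 at 43841971, before the window shown, which thus lies inside the gene as annotated there. Cdsn has 2 RefSeq starts, and the one nearest to the deposited locus was used.
Tgm3 (chr2:130012090-130012339, plus strand): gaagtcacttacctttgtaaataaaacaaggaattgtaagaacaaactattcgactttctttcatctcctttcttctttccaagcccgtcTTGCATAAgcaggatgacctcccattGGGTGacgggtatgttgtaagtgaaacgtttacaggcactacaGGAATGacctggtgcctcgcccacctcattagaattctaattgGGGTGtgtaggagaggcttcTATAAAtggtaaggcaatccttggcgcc
Casp14 (chr10:78718294-78718543, minus strand): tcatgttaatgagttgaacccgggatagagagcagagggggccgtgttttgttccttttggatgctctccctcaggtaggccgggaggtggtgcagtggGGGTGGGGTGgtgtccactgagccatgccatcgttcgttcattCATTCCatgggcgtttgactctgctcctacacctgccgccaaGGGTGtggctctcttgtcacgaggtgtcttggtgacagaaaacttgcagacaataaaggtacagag
Klk5 (chr7:43842019-43842268, plus strand): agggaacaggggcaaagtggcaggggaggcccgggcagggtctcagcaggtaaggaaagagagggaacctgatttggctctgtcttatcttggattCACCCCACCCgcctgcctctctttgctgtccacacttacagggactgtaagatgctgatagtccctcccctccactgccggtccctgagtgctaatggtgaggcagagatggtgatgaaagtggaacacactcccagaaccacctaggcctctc
Klk7 (chr7:43811044-43811293, plus strand): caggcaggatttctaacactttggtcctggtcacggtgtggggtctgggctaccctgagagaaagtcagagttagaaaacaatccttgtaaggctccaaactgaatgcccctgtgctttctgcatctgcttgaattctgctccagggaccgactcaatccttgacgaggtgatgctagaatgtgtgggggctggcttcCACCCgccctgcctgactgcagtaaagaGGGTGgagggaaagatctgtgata
Cdsn (chr17:35551878-35552127, plus strand): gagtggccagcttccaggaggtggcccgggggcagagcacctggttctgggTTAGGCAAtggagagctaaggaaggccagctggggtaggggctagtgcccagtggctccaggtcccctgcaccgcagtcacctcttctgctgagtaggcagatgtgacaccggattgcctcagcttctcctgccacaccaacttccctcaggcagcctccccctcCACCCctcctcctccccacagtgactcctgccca
The other motifs searched, TGANTCA (AP-1) and AACNNGTT (grainyhead-like factors), had 0 matches in these windows for the 8 members with a RefSeq entry used here. Among 32851 promoter windows of this length, 6.75% hold the AP-1 letters and 3.64% the grainyhead-like letters. The TEAD letters stood in Tgm3 and Casp14, the 2 genes called higher on the deposited values, against 12.6% of all windows. None of the other 6 members searched held them, and these include Tgm5 and Asprv1, which passed as higher under total scaling. St14 and Spink5 were not searched. Several motifs were looked at, and a link between motif and direction was not tested. Tgm3 alone of the 8 held TATAAA, 28 bases before the start, which 12.4% of all windows hold. C/EBP letters stood in Tgm3 and Cdsn (9.56% of all windows), and the short CACCC box stood in 7 of 8 members (52% of all windows), with 3 copies each in Casp14 and Asprv1. Each match is a run of letters in a window, not a measured binding site.

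Among the transglutaminases, Tgm3 rose, Tgm1 fell slightly and Tgm5 did not pass the test. Tgm3 (chromosome 2, 130012340 to 130050399, plus strand) encodes a cytosolic zymogen of the upper epidermis and the hair follicle, activated by proteolysis. Its values were 4.21, 3.33 and 4.92 FPKM in WT replicates 1 to 3 and 17.4, 16.2 and 13.4 FPKM in mutant replicates 1 to 3. Every mutant library lay above every WT library, and the gap between the groups was wider than the spread within either. The means were 4.15 ± 0.793 and 15.7 ± 2.02 FPKM (SD, n = 3), a log2 fold change of 1.70 (SE 0.13, limma adjusted p = 4.83e-05). The deposited intervals of the mutant values lay wholly above those of the WT values in 9 of 9 pairs of libraries. Ranked by log2 fold change, Tgm3 stood 25th from the top of the 11385 genes tested. By an exact permutation test (two-sided), p was 0.1, the lowest value that groups of 3 and 3 can give.

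Tgm1 (chromosome 14, 55700009 to 55713492, minus strand) encodes the membrane-anchored transglutaminase, whose loss in humans causes lamellar ichthyosis. It was at 15.8, 11.9 and 13.3 FPKM in WT and at 11.6, 9.14 and 11.2 FPKM in mutant libraries. The groups did not overlap, but WT replicate 2 lay close to the highest mutant value. The log2 fold change was -0.33 (SE 0.117, limma adjusted p = 0.0483). This call was lost in 7 of 13 alternatives: without WT replicate 1 (adjusted p = 0.142), WT replicate 3 (0.0751), mutant replicate 2 (0.156) or mutant replicate 3 (0.0606), and under 3 other settings, with a range over all alternatives of 0.0217 to 0.878. Total scaling left a log2 fold change of -0.03. Exons of Tgm1 overlap those of the antisense transcript Gm49067, whose reads may be included.

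Tgm5 (chromosome 2, 121046111 to 121085759, minus strand) encodes a transglutaminase of the upper epidermis whose human variants cause acral peeling skin. It was at 13, 12.5 and 12.3 FPKM in WT and at 11.6, 13.5 and 12.9 FPKM in mutant libraries. The groups overlapped, and the log2 fold change was 0.01 (SE 0.068, limma adjusted p = 0.946). Under total scaling, Tgm5 passed as higher (log2 fold change 0.31, adjusted p = 0.0469), by about as much as the median gene moved under that scaling. Of the summed FPKM of the 3 genes, Tgm3 held 12.7%, 12% and 16.1% in the WT and 42.8%, 41.7% and 35.8% in the mutant libraries. Tgm1 held 43% to 48% in WT and 23.5% to 29.9% in mutant libraries, so the share of Tgm3 was higher, and that of Tgm1 lower, in each mutant library.

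**Figure D1:**
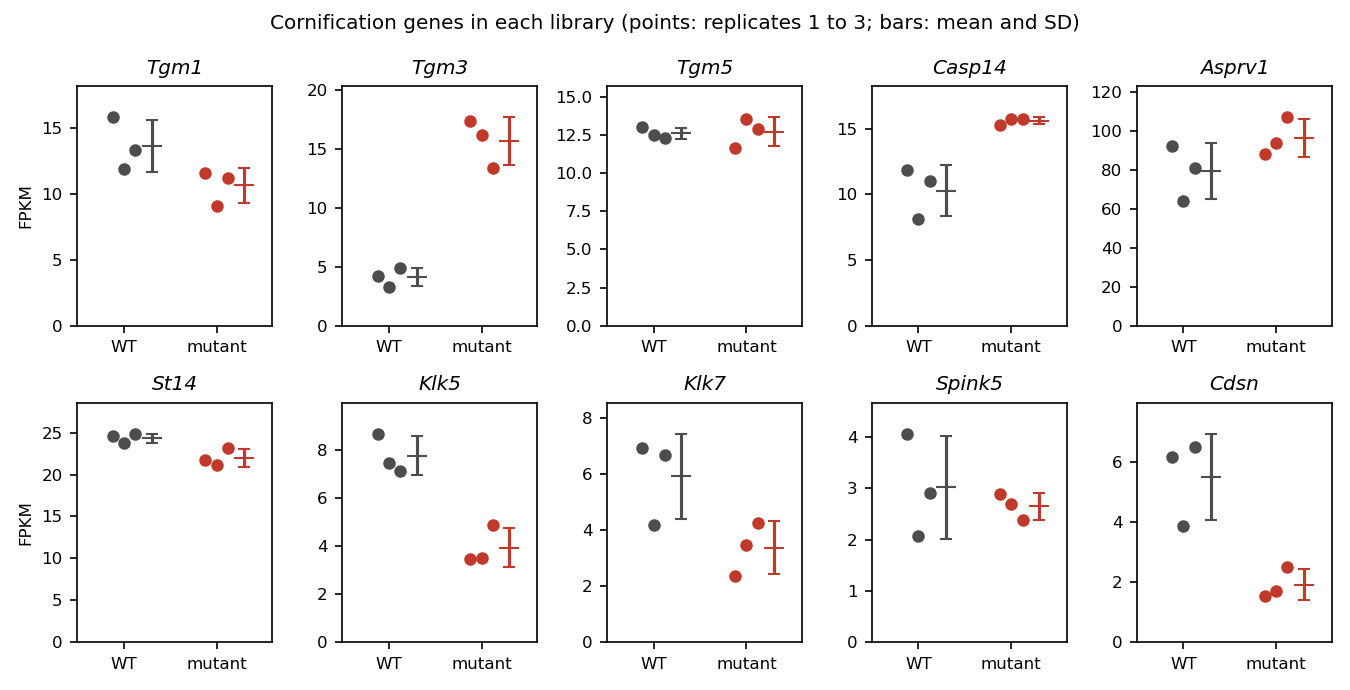
FPKM of the 10 genes in each library, with WT in grey and mutant in red, each vertical axis starting at 0, points for replicates 1 to 3 and bars for mean and SD. Tgm3 and Casp14 have all mutant points above all WT points, and Klk5, Cdsn and, more narrowly, Tgm1 and St14 have all mutant points below them.

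Of the other transglutaminase genes, Tgm7, which lies 7.83 kb from Tgm5 on chromosome 2, averaged 1.69 ± 0.216 FPKM in WT and 0.727 ± 0.101 in the mutant (SD, n = 3). It reached the minimum for testing only through the WT libraries, so its call as lower is no support. Tgm4 was at 2.14 ± 0.185 and 2.57 ± 0.243 FPKM (limma adjusted p = 0.133) and passed as higher under total scaling (0.0206). Tgm2, Tgm6, F13a1 and Epb4.2 were under the minimum for testing. Tgm6, picked for its place 62 kb from Tgm3 on that chromosome, averaged 0.0116 FPKM in WT and 0.0217 FPKM in the mutant. In all, 1 of 5 transglutaminase genes tested was higher and 2 were lower (Tgm1 and Tgm7), while under total scaling 3 were higher and 1 was lower.

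Of the 2 filaggrin proteases, Casp14 rose and Asprv1 did not pass the test. Casp14 (chromosome 10, 78711995 to 78718293, minus strand) was at 11.8, 8.12 and 11.0 FPKM in WT and at 15.3, 15.7 and 15.7 FPKM in mutant libraries. All mutant values lay above all WT values, and the mutant libraries were closer to each other (SD 0.271) than the WT libraries (SD 1.96, n = 3). It rose by a log2 fold change of 0.56 (SE 0.12, limma adjusted p = 0.00636) and kept the call in all 13 alternatives (adjusted p from 0.00264 to 0.026). The deposited intervals overlapped in each of the 9 pairs of libraries.

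Asprv1 (chromosome 6, 86628174 to 86629704, plus strand), an intronless gene in the annotation, had the highest level of the set. Its values were 92.4, 64.0 and 81.1 FPKM in WT and 88.2, 93.5 and 107 FPKM in mutant libraries, and the groups overlapped. The log2 fold change was 0.29 (SE 0.133, limma adjusted p = 0.111). Asprv1 passed as higher under quantile normalization (adjusted p = 0.015), under total scaling (0.00588) and without WT replicate 1 (0.0406), and its adjusted p ranged from 0.00588 to 0.323. Within each library, the ratio of Casp14 to Asprv1 was 0.128, 0.127 and 0.136 in WT and 0.173, 0.168 and 0.147 in mutant libraries. A single factor per library leaves such a ratio as it is, but quantile normalization does not: there the log2 fold change was 0.543 for Casp14 and 0.455 for Asprv1, beside 0.564 and 0.289 as deposited. This ratio and the other ratios given here were chosen after the values were seen, and carry no test.

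In the list of filaggrin processing genes, 2 of 8 tested were higher and 2 lower, with a median log2 fold change of -0.04. Under total scaling 4 were higher and 1 lower (median 0.28), and under quantile normalization 4 were higher and 2 lower. Capn1, the calcium-dependent protease calpain 1, rose from 69.3 ± 1.91 to 84.6 ± 2.84 FPKM (SD, n = 3, limma adjusted p = 0.00513). Furin, the convertase that cuts profilaggrin at its N-terminal domain, fell from 33.4 ± 3.13 to 26.2 ± 1.56 FPKM (adjusted p = 0.0106), a call lost under total scaling (0.936). Bleomycin hydrolase (Blmh), which breaks filaggrin peptides down to amino acids, was at 67.3 ± 0.975 and 70 ± 6.44 FPKM (adjusted p = 0.59), and passed as higher under total scaling (0.0061) and quantile normalization. The 4 peptidylarginine deiminase genes, Padi1 to Padi4, were under the minimum for testing.

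Casp14 is 1 of 7 caspases tested, of which 3 were higher. Under total scaling 6 were higher, and under quantile normalization 3 were higher and 1 was lower. Casp9, the initiator caspase of the apoptosome, rose from 3.85 ± 0.206 to 6.17 ± 0.398 FPKM (SD, n = 3, limma adjusted p = 6.96e-04). Casp8, the initiator caspase of death receptors, rose from 10.5 ± 1.10 to 13.2 ± 0.0375 FPKM (adjusted p = 0.0115). Casp6 (26.2 ± 0.869 and 26.8 ± 1.64 FPKM) and Casp2 (20 ± 1.96 and 22.3 ± 1.66 FPKM) did not pass.

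St14 (chromosome 9, 31088590 to 31131799, minus strand) encodes matriptase. Its values were 24.5, 23.7 and 24.8 FPKM in WT and 21.7, 21.1 and 23.2 FPKM in mutant libraries. Every mutant value lay under every WT value, by a ratio of means of 0.903, and the difference did not pass (log2 fold change -0.14, SE 0.058, limma adjusted p = 0.0797). Without mutant replicate 3 it passed as lower (adjusted p = 0.0405; range over the alternatives 0.0405 to 0.239), and under total scaling its direction turned (0.18, adjusted p = 0.17). Prss8, the gene of prostasin, a membrane protease that acts with matriptase, was picked after its values were seen and was at 6.95 ± 1.02 and 6.09 ± 0.546 FPKM (SD, n = 3, adjusted p = 0.251).

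In the list of membrane-anchored serine proteases and their Kunitz-type inhibitors, which holds St14 and Prss8, 3 of 8 tested were higher and 3 lower. Under total scaling, 3 were higher and 1 was lower. Tmprss4 rose most, from 16.2, 14.3 and 16.5 FPKM to 47, 43.9 and 39 FPKM, a 2.76-fold difference with no overlap between the groups (limma adjusted p = 1.88e-05). Tmprss13 rose from 7.96 ± 0.624 to 11.8 ± 0.746 FPKM (SD, n = 3, adjusted p = 0.00113). Hepsin (Hpn) fell from 3.37 ± 0.183 to 1.33 ± 0.203 FPKM (adjusted p = 2.49e-04). The matriptase inhibitor gene Spint1 rose from 15.9 ± 0.226 to 20.6 ± 0.902 FPKM (adjusted p = 0.00192). The related inhibitor gene Spint2, picked once its values were known, fell from 230 ± 1.86 to 174 ± 13.1 FPKM (adjusted p = 0.00313) and lost the call under quantile normalization and total scaling (0.396).

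Both kallikreins were lower in mutant libraries. Klk5 (chromosome 7, 43842269 to 43851181, plus strand), a trypsin-like protease that activates itself and Klk7, was at 8.66, 7.46 and 7.13 FPKM in WT and at 3.46, 3.50 and 4.86 FPKM in mutant libraries. No mutant value reached the lowest WT value, but the deposited intervals overlapped in each of the 9 pairs of libraries. For Klk5 the log2 fold change was -0.83 (SE 0.122, limma adjusted p = 0.00117), and the call was kept in all 13 alternatives (adjusted p from 4.38e-04 to 0.00682).

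Klk7 (chromosome 7, 43811444 to 43816359, plus strand), a chymotrypsin-like protease, was at 6.91, 4.19 and 6.66 FPKM in WT and at 2.38, 3.48 and 4.25 FPKM in mutant libraries. The groups overlapped, since WT replicate 2 lay just under mutant replicate 3. For Klk7 it was -0.66 (SE 0.201, limma adjusted p = 0.0288). That call was lost in 6 of 12 alternatives, among them those without WT replicate 1 (adjusted p = 0.09), WT replicate 3 (0.0736), mutant replicate 1 (0.0754) or mutant replicate 2 (0.0653). The range over all alternatives was 0.00873 to 0.132, the highest under total scaling. Deposited intervals lay apart in 2 of 9 pairs of libraries.

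Klk5 and Klk7 belong to a run of 12 listed kallikrein genes over 249 kb of chromosome 7, where they lie 25.9 kb apart. Of the 7 kallikreins that could be tested, 5 were lower and 1 was higher, against 22.8% and 23.2% of all genes tested, with a median log2 fold change of -0.47. Klk8 fell from 22.1 ± 2.28 to 12.1 ± 1.5 FPKM (SD, n = 3, limma adjusted p = 5.33e-04), and Klk11 fell from 34.1 ± 1.78 to 25.8 ± 1.01 FPKM (adjusted p = 0.00174). Klk9 fell from 2.89 ± 0.324 to 1.83 ± 0.512 FPKM (adjusted p = 0.0284), a call lost in 6 of 12 alternatives. Klk10, the most abundant kallikrein picked once its values were known, was at 82.6 ± 3.15 and 79.6 ± 7.69 FPKM (adjusted p = 0.585). Klk13 rose from 12.6 ± 1.5 to 16.1 ± 1.2 FPKM (adjusted p = 0.0203), a call lost without WT replicate 2, mutant replicate 1 or mutant replicate 2. Under total scaling, 2 were lower (Klk5 and Klk8) and 2 higher (Klk10 and Klk13), and the median was -0.54 relative to the median gene, beside -0.48 as deposited.

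**Figure D2:**
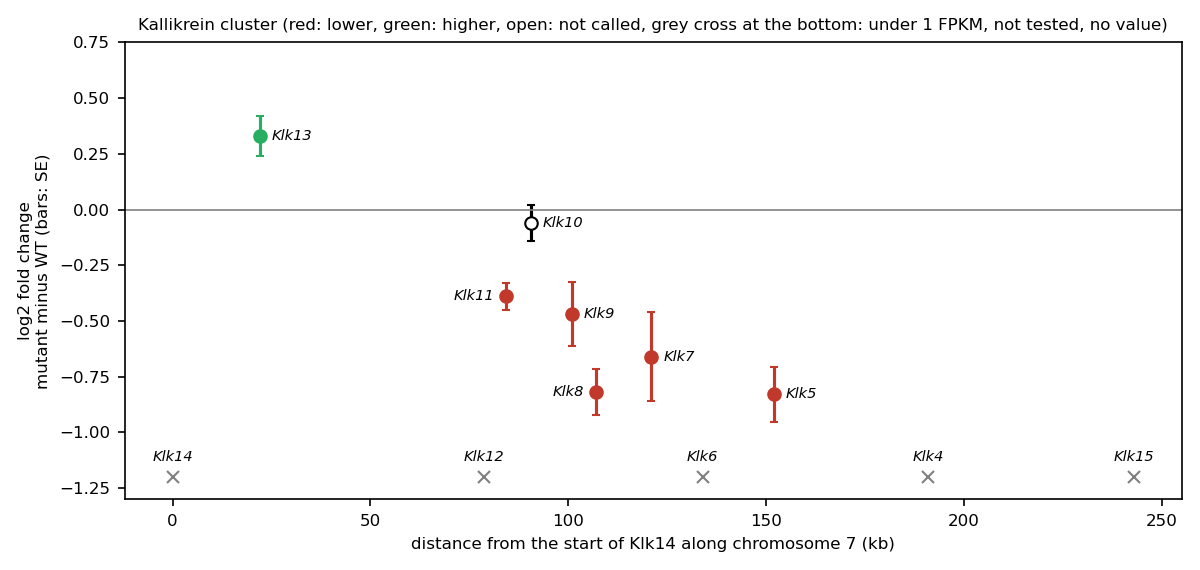
Log2 fold change (mutant minus WT, on log2(FPKM + 1), bars for SE) of kallikreins in genome order, against distance in kb from the start of Klk14 along chromosome 7. The 5 genes called lower lie between 84.2 and 152 kb, with Klk10 among them near 0, and Klk13 at 22.1 kb is the one called higher. Grey crosses mark 5 genes under 1 FPKM, which carry no value.

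Spink5 (chromosome 18, 43963241 to 44022487, plus strand), the gene of the kallikrein inhibitor LEKTI, was at 4.06, 2.07 and 2.91 FPKM in WT and at 2.89, 2.70 and 2.38 FPKM in mutant libraries. The mutant values lay inside the WT range, and the difference did not pass (log2 fold change -0.11, SE 0.17, limma adjusted p = 0.627). Within each library, the ratio of Klk5 to Spink5 was 2.13, 3.6 and 2.45 in WT and 1.2, 1.3 and 2.04 in mutant libraries, without overlap. The ratio of Klk7 to Spink5 was 1.7, 2.02 and 2.28 in WT and 0.824, 1.29 and 1.79 in mutant libraries, with overlap. Mutant replicate 3 had the highest mutant ratio in both cases.

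In the list of secreted protease inhibitors, 3 of 7 tested were higher and 1 lower. The cysteine protease inhibitor gene Csta1 rose from 10.2 ± 0.557 to 16.6 ± 0.405 FPKM (SD, n = 3, limma adjusted p = 1.27e-04). Stfa3 (4869 ± 507 to 7548 ± 627 FPKM, adjusted p = 0.0163) and Stfa1 (838 ± 91.9 to 1139 ± 123 FPKM, adjusted p = 0.0213) are near copies of each other that can share reads, so their values are uncertain. Each lost the call in 5 of 13 alternatives. The 1 called lower, Wfdc21, was at 1.62 ± 0.428 and 0.580 ± 0.187 FPKM and reached the minimum for testing only through the WT libraries, so its call is no support. Relatives of Spink5 in the list (Spink6, Spink7 and Spink12) were listed at 0 in every library.

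Cdsn (chromosome 17, 35552128 to 35557180, plus strand), the kallikrein substrate, fell most of the 10 genes. It was at 6.15, 3.86 and 6.47 FPKM in WT and at 1.55, 1.69 and 2.51 FPKM in mutant libraries. The highest mutant library stayed under the lowest WT library, which was replicate 2. The log2 fold change was -1.14 (SE 0.185, limma adjusted p = 0.0019), and the call held in all 12 alternatives in which Cdsn could be tested (adjusted p from 6.9e-04 to 0.0104). The deposited intervals lay apart in 6 of 9 pairs of libraries. The ratio of Cdsn to Klk7 within a library was 0.889, 0.921 and 0.972 in WT and 0.652, 0.486 and 0.590 in mutant libraries, so Cdsn was lower relative to Klk7 as well. The ratio of Cdsn to Klk5 was 0.71, 0.517 and 0.908 in WT and 0.448, 0.484 and 0.516 in mutant libraries, where the groups nearly met.

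**Figure D3:**
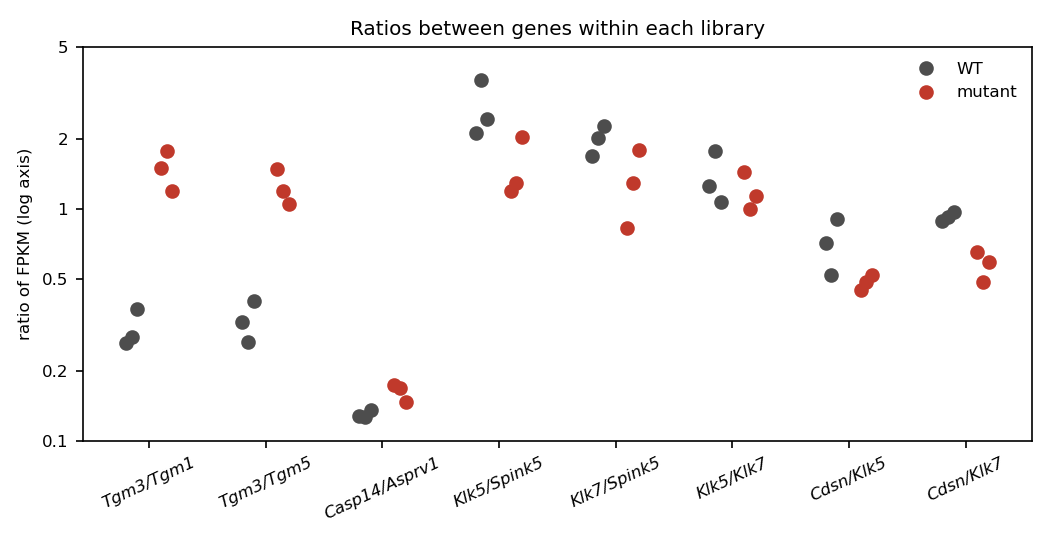
Ratios of FPKM between genes within each library on a log axis, WT in grey and mutant in red, 3 points per group. The ratios of Tgm3 to Tgm1 are between 0.265 and 0.368 in WT and between 1.2 and 1.77 in mutant libraries, and those of Klk5 to Klk7 overlap.

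Of 8 corneodesmosome genes tested, 5 were higher and 1 lower (23.2% and 22.8% of all genes tested), with a median log2 fold change of 0.53. Cdsn was the 1 called lower, and 2 were not called. The latter were the plaque genes Pkp3 (175 ± 6.39 FPKM in WT and 155 ± 8.34 in mutant, SD, n = 3, limma adjusted p = 0.0688) and Jup (276 ± 12.2 and 265 ± 18 FPKM, adjusted p = 0.577), both picked once their values were known. The desmosomal cadherin genes Dsc1 (5.83 ± 1.11 to 20.3 ± 1.85 FPKM, SD, n = 3) and Dsg1a (32.1 ± 1.27 to 75.4 ± 8.06 FPKM) rose (limma adjusted p = 4.65e-05 and 3.25e-05). Dsg1b (3.86 ± 0.133 to 12.1 ± 2.29 FPKM) rose too, and as a close copy of Dsg1a it can share reads with it. The plaque gene Pkp1 rose from 361 ± 37.1 to 579 ± 37.6 FPKM (adjusted p = 0.00118). Desmoplakin (Dsp), picked once its values were known, rose from 366 ± 37.1 to 477 ± 45.9 FPKM (adjusted p = 0.0214), a call lost in 5 of 13 alternatives.

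Of 16 substrates of the transglutaminases tested, 8 were higher and 2 lower, with a median log2 fold change of 0.35. The background was 23.2% higher and 22.8% lower over all genes tested. The 8 include Dsp, also counted above, and Evpl, picked once its values were known, whose call was lost in 7 of 13 alternatives. The keratins Krt1 (1569, 1288 and 1609 FPKM in WT, then 6464, 5562 and 5164 FPKM) and Krt10 (1796, 1451 and 1866 FPKM in WT, then 6649, 5783 and 5266 FPKM) rose without overlap (limma adjusted p = 5.40e-05 and 1.05e-04). Krt2, the type II keratin of the upper layers, counted among the 8, was at 0.0982 ± 0.0652 and 2.20 ± 1.18 FPKM (SD, n = 3), so it reached the minimum for testing only through the mutant libraries, and its call is no support. Periplakin (Ppl), a scaffold protein of the envelope, rose from 47 ± 7.74 to 84.2 ± 9.51 FPKM (adjusted p = 0.00147). The 2 that fell, also picked that way, were the envelope genes Lor (76.6 ± 24.4 to 31.6 ± 15.3 FPKM, adjusted p = 0.0155) and Cnfn (15.5 ± 4.70 to 5.67 ± 1.87 FPKM, adjusted p = 0.00385). The call of Lor was lost without WT replicate 1 or mutant replicate 2.

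Cathepsins and legumain are lysosomal proteases, of which some act in the epidermis. Of 9 tested, 5 fell and 1 rose, against 22.8% and 23.2% of all genes tested, with a median log2 fold change of -0.48. Ctsl fell from 119 ± 7.79 to 61.7 ± 6.91 FPKM (SD, n = 3, limma adjusted p = 1.63e-04), and Lgmn fell from 20.6 ± 0.975 to 12.6 ± 0.706 FPKM (adjusted p = 1.78e-04). Ctsf fell from 4.39 ± 0.523 to 2.19 ± 0.192 FPKM (adjusted p = 6.49e-04). Ctsc, whose product activates serine proteases, rose from 27 ± 1.06 to 45.5 ± 3.73 FPKM (adjusted p = 1.71e-04). Under total scaling, 4 were lower and 3 higher.

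**Figure D4:**
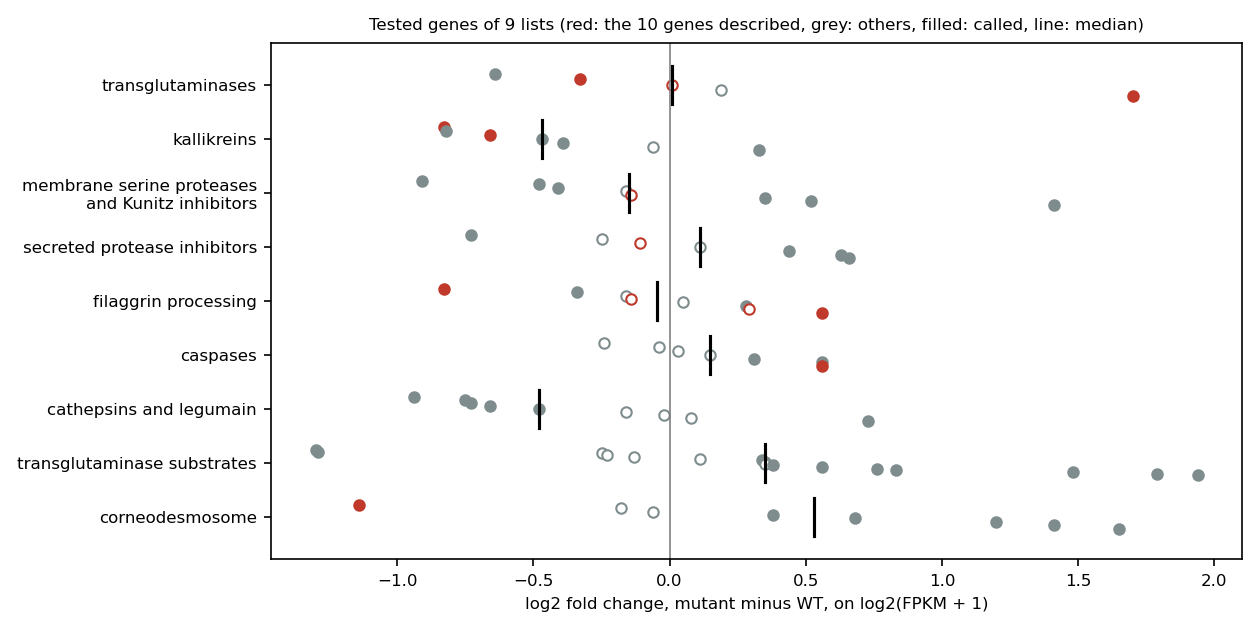
Log2 fold change (mutant minus WT, on log2(FPKM + 1)) of each tested gene in 9 lists, with the 10 genes described in red, others in grey, filled points for calls and a line for the median. Members lie at both ends: Tgm3 is at 1.70 among the transglutaminases and Cdsn at -1.14 among the corneodesmosome genes.

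By mean level, which can be compared between genes because FPKM is per length, the order in WT was Asprv1, St14, Tgm1, Tgm5, Casp14, Klk5, Klk7, Cdsn, Tgm3 and Spink5. Asprv1 and St14 each lay apart from the next gene in both groups. In WT, the ranges of Tgm1 and Tgm5 overlapped, as did those of Casp14 and Klk5 and of each neighbouring pair from Klk7 down. In mutant libraries Tgm3 moved from the ninth to the third place, beside Casp14, with which its range overlapped. Cdsn moved from the eighth to the last place, its range overlapping that of Spink5.

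The libraries of a group differed in a way that many of the 10 genes shared. WT replicate 2 had the lowest WT value for 8 of 10 genes (all but Tgm5 and Klk5). Granular layer markers (Lor, Flg2, Hrnr, Krt2, Aloxe3, Alox12b and Ivl) summed to 57.6 FPKM in that library and to 99 and 109 FPKM in WT replicates 1 and 3. Among mutant libraries, replicate 3 had the highest value for 6 genes (Casp14, Asprv1, St14, Klk5, Klk7 and Cdsn), and there granular markers summed to 61.1 FPKM, against 30.8 and 32.9 FPKM in replicates 1 and 2. Lor made up most of that sum, at 86, 48.8 and 94.8 FPKM in WT and 20.9, 24.8 and 49.1 FPKM in mutant libraries. Of 6 granular markers tested, 1 was called higher (Krt2), 2 lower (Lor and Aloxe3) and 3 not called, but the minimum for testing shaped this count. Krt2 reached it only through the mutant and Aloxe3 (3.33 ± 0.383 and 0.852 ± 0.0895 FPKM, SD, n = 3) only through the WT libraries, while Flg2 (0.766 ± 0.1 and 0.236 ± 0.0848 FPKM) did not reach it. Replicate 3 also had the largest total of the mutant libraries (651769 FPKM, against 542210 and 538627). By contrast, WT replicate 2 had the largest WT total (767148 FPKM). For Casp14, mutant replicates 2 and 3 were nearly equal (15.72 and 15.75 FPKM). How many of all genes were lowest or highest in these libraries was not counted. The part of granular cells or of library scale in these values was not tested.

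Spinous layer markers (Krt1, Krt10, Dsg1a, Dsc1, Sbsn and Krtdap) summed to 3810 to 4573 FPKM in WT and 11698 to 14325 FPKM in mutant libraries, with 4 of 6 called higher. Krt1 and Krt10 made up most of each sum. All 4 called were already counted above, Krt1 and Krt10 as substrates and Dsg1a and Dsc1 as corneodesmosome genes. The 3 counts are therefore not separate. Sbsn (137 ± 23.7 and 122 ± 6.32 FPKM, SD, n = 3) and Krtdap (928 ± 81.5 and 1018 ± 44.1 FPKM) did not pass (limma adjusted p = 0.319 and 0.306). Like Krt1 and Krt10, Tgm3 was highest in replicate 1 and lowest in replicate 3 of the mutant libraries. Basal markers summed to 25812 to 26210 FPKM in WT and 23711 to 27134 FPKM in mutant libraries, with overlap, and 4 of 8 were lower and 1 higher (2 lower and 3 higher under total scaling). Hair follicle and inner root sheath markers, listed because Tgm3 is also made there, summed to 91.2 to 108 FPKM in WT and 76.6 to 91.6 FPKM in mutant libraries, with 4 of 8 tested higher and 2 lower. Those called higher were Shh (3.1 ± 0.25 to 6.72 ± 0.976 FPKM), Lhx2 (9.82 ± 0.628 to 17.2 ± 2.56 FPKM), Tchh (1.59 ± 0.210 to 2.83 ± 0.450 FPKM) and Krt28 (1.42 ± 0.624 to 2.49 ± 0.262 FPKM). Those called lower were Sox9 (47.7 ± 4.27 to 23.6 ± 0.671 FPKM) and Krt25 (1.73 ± 0.448 and 0.927 ± 0.121 FPKM). Krt25 reached the minimum for testing only through the WT libraries. The part of these cells in the result for Tgm3 was not tested.

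Genes whose profile over the 6 libraries was closest to a member's were found by the root mean square difference of log2(FPKM + 1) values centred on each gene's mean. For Tgm3, these were Dsc1 (difference 0.0547), Krt10 (0.0706) and Pla2g4f (0.111), a cytosolic phospholipase gene that went from 2.74 ± 0.399 to 9.87 ± 1.28 FPKM (SD, n = 3). For Cdsn, they were Pdzk1ip1 (0.0982, from 9.45 ± 1.85 to 4.09 ± 0.751 FPKM), Lce1b (0.128, from 5.11 ± 1.31 to 2.15 ± 0.904 FPKM) and Otud1 (0.131, from 20.9 ± 2.06 to 9.49 ± 1.43 FPKM). Lce1b belongs to a family of envelope genes with near-identical copies, so its value is uncertain. Because the profiles span both groups, a near profile mainly means a like fold change. The log2 fold changes were 1.65 for Dsc1 and 1.79 for Krt10, beside 1.70 for Tgm3. They were -1.03 for Pdzk1ip1, -0.97 for Lce1b and -1.06 for Otud1, beside -1.14 for Cdsn. These neighbours are a description and carry no test of cell layer.

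**Figure D5:**
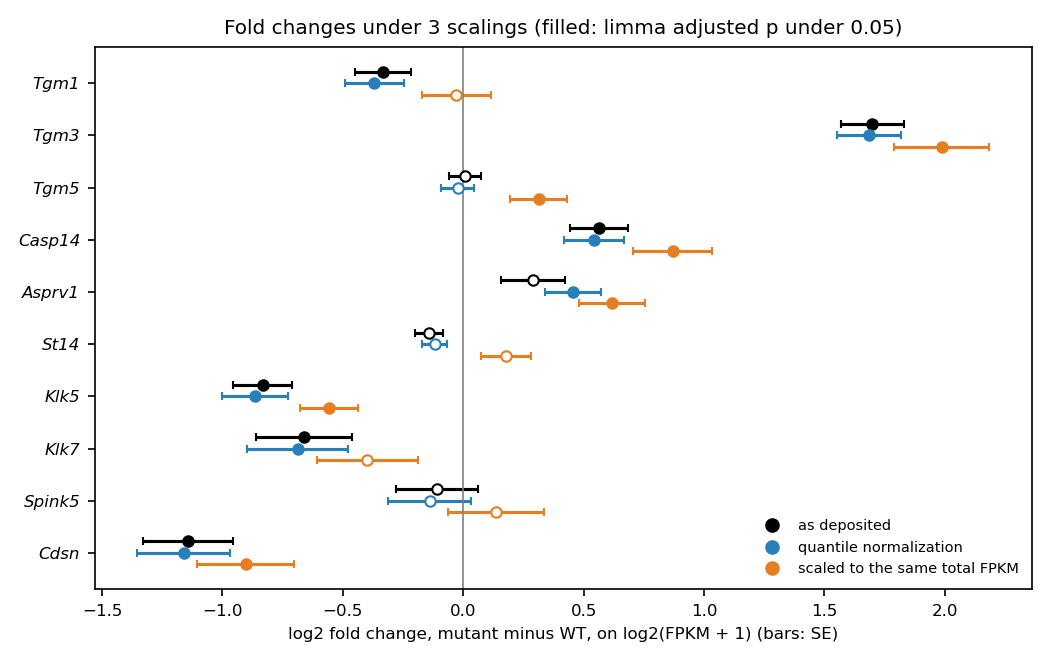
Log2 fold change (mutant minus WT, on log2(FPKM + 1), bars for SE) of the 10 genes with values as deposited, after quantile normalization and under total scaling, filled where the limma adjusted p was under 0.05. Tgm3, Casp14, Klk5 and Cdsn stay filled on the same side of 0 in all 3, while Tgm1, Tgm5, Asprv1 and Klk7 gain or lose the call.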

How the data were processed

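RNA of sorted cells was sequenced in 6 libraries, 3 WT and 3 mutant, grouped by the labels. Its values are FPKM for each gene in each library, deposited by the authors and made with TopHat and Cufflinks per the submitters' processing notes. No version, setting, strandedness or scaling between libraries is given in the sources used here. Interval bounds deposited around each value were used as a signal in FPKM; their confidence level is not given. The notes name mm9, but of 23315 symbols found in GENCODE M21 (GRCm38), 98.9% overlapped the gene of that name, so positions are read as GRCm38, with 1 added to each start.

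The 11385 genes whose mean reached 1 FPKM were tested with limma 3.58.1 in R 4.3.3 on log2(FPKM + 1), with an empirical Bayes trend, Benjamini-Hochberg adjustment over all of them and a threshold of 0.05. The procedure was tested on simulated data in which few genes changed and the groups had the same scale. That test therefore does not cover the wide change or the scaling question met here. Python 3.11.15, numpy 2.4.6, pandas 2.3.3 and matplotlib 3.10.9 were used for tables and figures. Members and lists were chosen with earlier results of these data known. Up to 4 genes per list were named, those called first by smallest p, then the most abundant, with the 3 profiles nearest to the member that rose most and to the one that fell most. Alternatives covered pseudocount, filter, scaling, variance prior, replicate block and leaving out each library.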

Additional observations from a re-analysis of the deposited data

How the results depend on the processing

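Tgm3, Casp14, Klk5 and Cdsn kept their direction and call in every alternative in which they could be tested. Without any filter on low values, 2 of the 10 genes were called lower, because Tgm1 and Klk7 lost the call over 18122 tested genes. Requiring a mean of 5 FPKM also gave 2, since Klk7, Cdsn and Spink5 were then not tested, and lowered the list genes called lower from 20 to 13. With libraries scaled to the same total, 4 of the 10 genes were called higher and 2 lower, 12 list genes were lower, and the table held 5396 higher and 839 lower genes, against 2642 and 2592. That scaling also turned the uncalled log2 fold changes of St14 (0.177) and Spink5 (0.136), and quantile normalization turned that of Tgm5 (-0.023). Leaving out 1 library at a time gave 2 to 4 genes called lower, 2 to 3 called higher and 4 to 6 called in all. These refits ranged from -0.037 to 0.062 for Tgm5 and from -0.287 to 0.074 for Spink5. Whether the replicate numbers pair the samples was not settled. Deviations from the group means correlated at 0.127, 0.122 and -0.007 for numbers 1 to 3. For WT replicates 1 and 2, the mutant library of the same number correlated best, while WT replicate 3 correlated best with mutant replicate 1 (0.062). Deviations within a group of 3 depend on each other, so these values cannot decide the question. With the replicate block, the same counts of 2 higher and 4 lower genes were called, and 3798 genes in the table against 5234. No read totals were used here, so the limits set by depth are not known. The deposited intervals had a median halfwidth of 34.8% to 35.2% of the value, while relative depth lay between 0.981 and 1.24. The median halfwidth thus hardly changed with relative depth, which itself depends on a scaling between libraries that is not given. Low values had relatively wider intervals. For Cdsn in mutant replicate 1 the interval was 0.714 to 2.39 around 1.55 FPKM. For Tgm1 in WT replicate 1 it was 10.8 to 20.9 around 15.8 FPKM. What part of the intervals comes from depth is not known.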
